A study of Mus musculus with 6 samples.

Results

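Transcripts of macrophages and other leukocytes were read in embryonic mouse hearts taken whole at day 16.5 of gestation, from 3 FOG-2R3K5A hearts (called mutant from here on) and 3 WT hearts, 1 array per sample. The set holds 32 genes chosen as known markers of macrophages, leukocytes in general and granulocytes, with earlier results of these data known. They are out of 18193 genes that the array reads through a probe set with a single gene symbol. FOG-2, encoded by Zfpm2, is a cofactor of GATA factors, and the R3K5A substitutions are known to abolish its binding to the NuRD complex. Both groups were siblings from crosses of double heterozygotes, and their strain background is given as mixed C57/B6, 129 S6. The labels give neither the zygosity of the mutants, nor the sex, nor whether a sample was 1 heart or a pool, so the p-values measure the spread between these samples. For each gene the brightest probe set on average was used, as log2 of the deposited intensity, and 24 of the 32 members lay above the filter of 6.30 log2 units, the median of all probe sets.

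Macrophages reach the heart before birth, from the yolk sac and fetal liver, and settle between cardiomyocytes, along vessels and in the valves, where they clear dying cells. Their growth and survival depend on the receptor Csf1r, and their identity on the transcription factor PU.1, encoded by Spi1. Resident cardiac macrophages are known for the mannose receptor Mrc1, the hyaluronan receptor Lyve1, coagulation factor F13a1 and the chemokine Pf4, whereas neutrophils and some monocytes are known for the calcium-binding proteins S100a8 and S100a9. A whole heart gives 1 value for all its cells, so fewer cells of a type and less RNA per cell cannot be told apart.

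None of the members passed the test in either direction: 0 of 24 were called by limma at an adjusted p under 0.05, where 1.76% of all 11113 genes tested were called, 1.39% higher and 0.369% lower in mutants. At an unadjusted p under 0.05, 4 of 24 members were higher and 0 lower, against 8.4% and 6.33% of all genes. The genotypes did not overlap, with all mutants higher, for those same 4 genes, F13a1, Fcgr3, C1qa and Ctss, or 16.7% of the 24, where 11.5% of all genes did so. All mutants were lower for 0 members and for 9.76% of all genes. Of the 24 differences 19 were positive (79.2%), against 47.2% over all genes, and 16 to 21 of 24 were positive with any 1 array left out. Their median was 0.15 log2 units against -0.01 over all genes, and they ran from -0.16 for S100a8 to 0.60 for Fcgr3. Members share cells and arrays and are no replicates of each other. The list was chosen with earlier results of these data known, so its counts and median beside those of all genes are a description only.

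**Figure D1:**
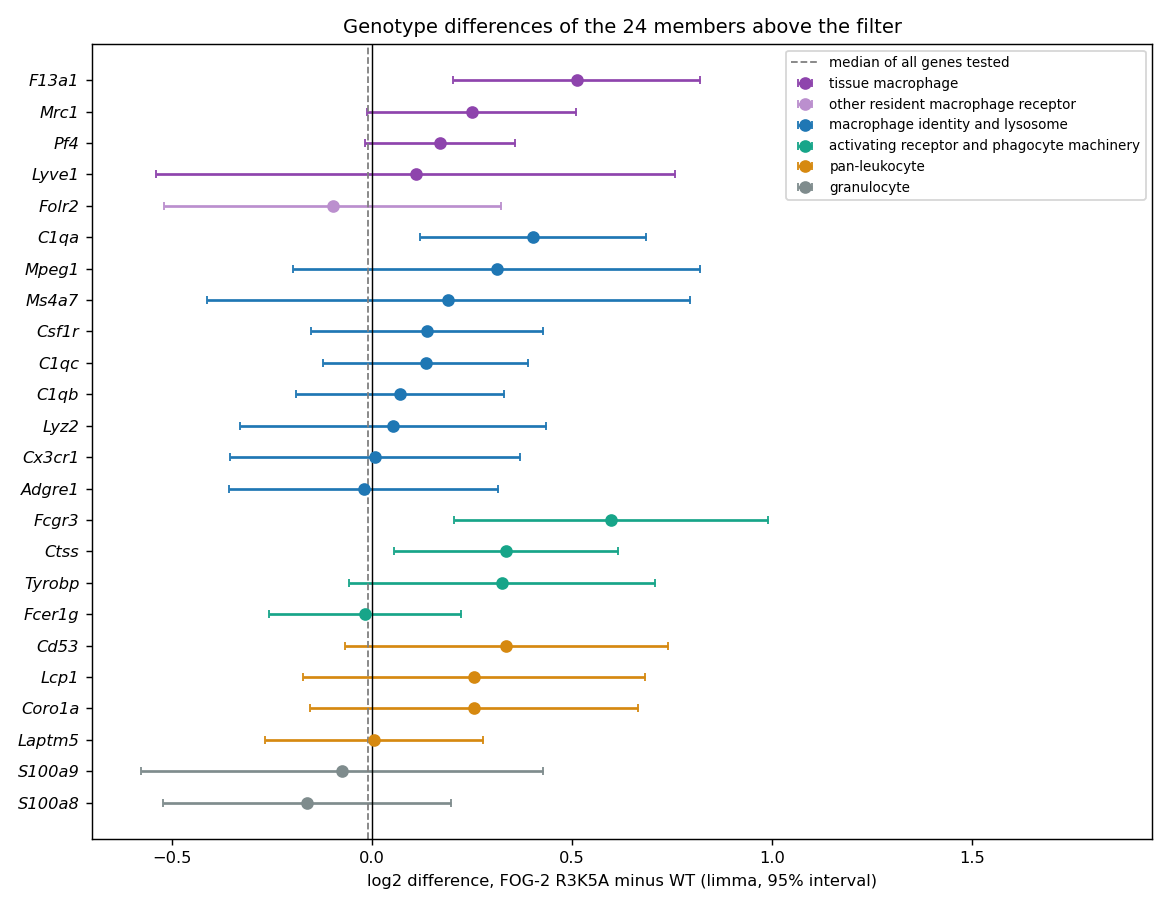
Difference in log2 intensity, FOG-2R3K5A minus WT, for the 24 members above the filter (limma estimate as a point, 95% interval as a bar, n = 3 arrays per genotype), coloured by role, with the dashed line at the median of all genes tested. Points lie right of 0 for 19 genes, the intervals of F13a1, C1qa, Fcgr3 and Ctss exclude 0 before adjustment, and both granulocyte genes lie left of it.

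Facts of the whole series bear on these values. Median intensities were 77.4 to 84.1 across the arrays, and cardiomyocyte markers, 6 of 6 above the filter, summed to 57030 to 57510 in mutants and 53410 to 55380 in WT hearts. WT replicate 1 correlated with mutants at 0.984 to 0.990 over the tested genes and with the other WT arrays at 0.982 and 0.986. The lung secretoglobin Scgb3a2 read 9.03, 4.87 and 11.36 log2 units in mutant replicates 1, 2 and 3 and 4.83, 4.81 and 5.40 in WT replicates, and 6 lung and airway markers, 3 of them above the filter and Nkx2-1 at 0 on mutant replicate 2 and WT replicate 1, summed to 176.2 to 3457 in mutants and 173 to 284.6 in WT hearts. Of the defining markers of macrophages and leukocytes, Csf1r, Adgre1 and C1qa to C1qc were above the filter, while Ptprc, Cd68 and Itgam were under it in both genotypes.

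The rule of the set puts F13a1, Mrc1, Lyve1 and Pf4 together as tissue macrophage genes. All 4 had positive differences, of which F13a1 had the largest and 0 passed the test. F13a1, the transglutaminase subunit that cross-links fibrin, read 8.51, 8.21 and 8.34 in mutants and 8.0, 7.58 and 7.94 log2 units in WT hearts. The lowest mutant lay above the highest WT array, and the difference was 0.51 (SE 0.14, 1.43-fold), with the smallest adjusted p of any member (limma, 0.116). Mrc1, which takes up mannose-bearing glycoproteins, read 8.59, 8.45 and 8.31 in mutants and 8.37, 8.16 and 8.08 in WT hearts. Here 1 WT array, replicate 1, reached into the mutant range, and the difference was 0.25 (SE 0.12, limma adjusted p = 0.363).

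Pf4, a chemokine that platelets also store, read 9.68, 9.48 and 9.62 in mutants and 9.48, 9.41 and 9.38 in WT hearts, a difference of 0.17 (SE 0.08, limma adjusted p = 0.385). The genotypes met at mutant replicate 2 and WT replicate 1. Platelet and megakaryocyte markers, of which 3 of 7 on the array were above the filter and none was at 0, summed to 643.2 to 695.6 in mutants and 600.9 to 718 in WT hearts. Of these 3, Itga2b, the platelet integrin, had a difference of 0.04, Ppbp one of 0.08 and Gp1bb one of -0.26, and the genotypes overlapped in the summed level. A second Gp1bb probe set, under the filter, had the opposite sign, 0.53, with overlap. Also under it, Itgb3 had 0.35 with every mutant higher, and Gp6 0.01, Treml1 -0.13 and Gp9 -0.35 with overlap.

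Lyve1 varied more within each genotype than between them. It read 8.96, 8.42 and 9.46 in mutants and 8.34, 8.83 and 9.34 in WT hearts, so that the SDs of 0.52 and 0.50 were several times the difference of 0.11 (SE 0.29, limma adjusted p = 0.892). A second Lyve1 probe set had its lowest values on the same 2 arrays, at 7.88, 7.47 and 7.95 in mutants and 7.24, 7.89 and 8.06 in WT hearts. Lymphatic endothelium also expresses Lyve1. Its master factor Prox1 had a difference of -0.09, and other Prox1 probe sets above the filter gave -0.08 and 0.15. The lymphatic receptor Flt4 had 0.03, while a second Flt4 probe set, under the filter, had -0.52 with every mutant lower. Reln had 0.25, or -0.12 with its second probe set. Pdpn, which mesothelium shares, had 0.61 (limma adjusted p = 0.0605). The 4 lymphatic markers on the array, none at 0, summed to 1362 to 1535 in mutants and 1246 to 1262 in WT hearts. Of the 4 main probe sets in that sum, only that of Pdpn did not overlap between genotypes. The part of these markers in the Lyve1 values was not tested.

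**Figure D2:**
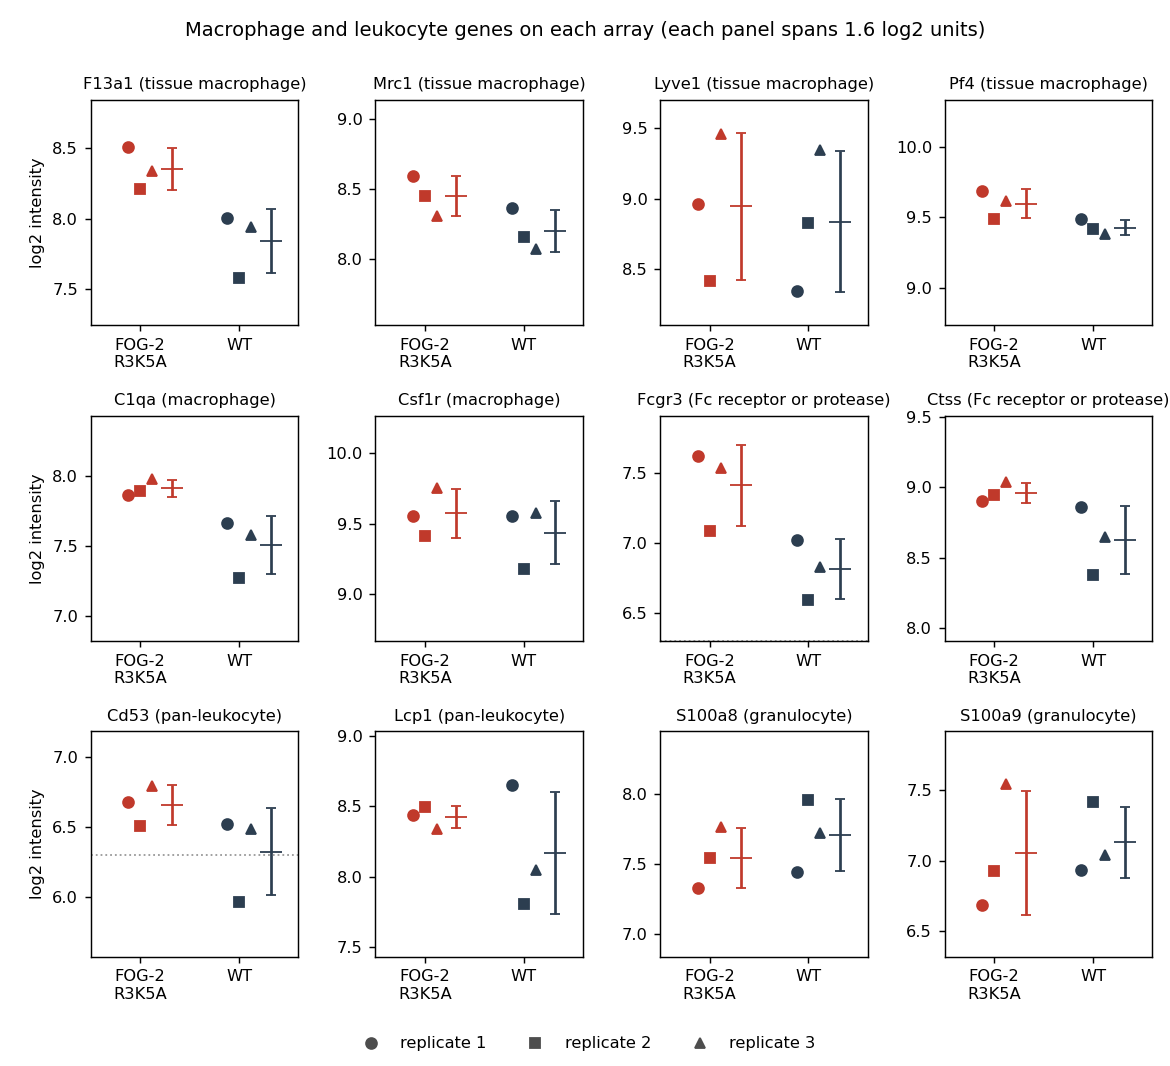
Log2 intensity of 12 members on each array, FOG-2R3K5A left and WT right in each panel, with the marker shape giving the replicate number, the bar the mean and SD of 3 arrays, and a dotted line the filter level where it falls within the panel. F13a1, C1qa, Fcgr3 and Ctss do not overlap between genotypes, Lyve1 spreads widely within both, and WT replicate 2 is the lowest array in 7 of the 12 panels.

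Folr2, the folate receptor of resident macrophages, had the opposite sign to F13a1. It read 6.21, 6.42 and 6.82 in mutants and 6.54, 6.41 and 6.80 in WT hearts, a difference of -0.10 (SE 0.19). The haemoglobin scavenger receptor Cd163 stayed under the filter, at 5.16, 4.50 and 5.20 in mutants and 4.44, 4.37 and 4.68 in WT hearts, with overlapping genotypes.

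Genes of macrophage identity and of the lysosome were 13 members, of which 9 were tested, 8 with a positive difference and 0 called, with a median of 0.13. Csf1r, the receptor for the growth factors Csf1 and Il34, read 9.56, 9.41 and 9.75 in mutants and 9.56, 9.18 and 9.57 in WT hearts. Its genotypes overlapped, the difference was 0.14 (SE 0.13, limma adjusted p = 0.656), and other Csf1r probe sets gave 0.01 and -0.12. The chains of C1q, which starts the classical complement cascade and in tissue comes mostly from macrophages, had differences of unequal size, whose inequality was not tested. C1qa read 7.86, 7.89 and 7.98 in mutants and 7.67, 7.28 and 7.58 in WT hearts, with no overlap, and its difference was 0.40 (SE 0.13, 1.32-fold, limma adjusted p = 0.173). C1qb had 0.07 and C1qc 0.13, both with overlapping arrays. Other C1qb probe sets gave 0.41 and 0.16, also with overlap.

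Mpeg1, a pore-forming protein of the phagosome, read 6.83, 6.72 and 7.02 in mutants and 6.98, 6.03 and 6.63 in WT hearts, a difference of 0.31 (SE 0.23, limma adjusted p = 0.551). WT replicate 1 lay within the mutant range and WT replicate 2 far under it. Ms4a7 had a difference of 0.19 with a WT SD of 0.57, the widest of any member. A second Ms4a7 probe set, under the filter, had -0.85 with every mutant lower. Lyz2, the lysozyme of myeloid cells, had 0.05, Cx3cr1, the fractalkine receptor, 0.01 and Adgre1, the F4/80 antigen, -0.02. Under the filter, and so outside the test, lay Aif1 (5.79 to 6.04 in mutants, 5.31 to 5.58 in WT hearts), Cd68 (5.82 to 6.02 and 5.51 to 5.94), Cd14 (3.88 to 4.46 and 4.23 to 4.77) and Trem2 (3.30 to 3.38 and 2.86 to 3.83). Of these 4, Aif1 had genotypes that did not overlap.

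Receptors and proteins of phagocyte activation gave the largest single difference. Fcgr3, a low-affinity receptor for IgG, read 7.62, 7.08 and 7.53 in mutants and 7.02, 6.59 and 6.83 in WT hearts. Each mutant was higher than each WT array, by little for mutant replicate 2 against WT replicate 1, and the difference was 0.60 (SE 0.17, 1.51-fold, limma adjusted p = 0.150). Ctss, a cysteine protease that processes antigen for class II presentation, read 8.91, 8.94 and 9.04 in mutants and 8.86, 8.38 and 8.65 in WT hearts, a difference of 0.34 (SE 0.12, limma adjusted p = 0.250) without overlap.

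Signalling adaptors of these receptors were also read. Tyrobp, the adaptor of Trem2 and related receptors, read 7.77, 7.60 and 7.78 in mutants and 7.69, 7.01 and 7.48 in WT hearts, a difference of 0.32 (SE 0.17, limma adjusted p = 0.411), with WT replicate 1 inside the mutant range. Fcer1g, the chain through which Fcgr3 signals, had -0.02 (SE 0.11), with all arrays between 7.37 and 7.51. Cybb, the catalytic subunit of the phagocyte oxidase, was under the filter at 6.05, 6.18 and 6.29 in mutants and 5.69, 5.64 and 5.91 in WT hearts, without overlap. Other Cybb probe sets gave differences of 0.03 and 0.30, both with overlap. The integrin Itgam, also under the filter, read 4.69 to 4.87 in mutants and 4.54 to 5.38 in WT hearts.

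Promoter windows of 3 of the 4 genes without overlap, and of Pf4, are shown because PU.1 binds purine-rich sites with the core GAGGAA in many macrophage genes. RefSeq windows (GRCm38.p6, 250 bases before to 50 after the start site) were found for 26 of the 32 members. The other 6 are Adgre1, C1qa, Cd14, Csf1r, Lyve1 and Tyrobp. Capitals mark GAGGAA on either strand (TTCCTC where it lies on the opposite strand), extended to GAGGAAGT (ACTTCCTC) where that longer form is present. The windows lie at chr13:37049164-37049463 on the minus strand for F13a1, chr3:95526536-95526835 on the plus strand for Ctss, chr1:171059345-171059644 on the minus strand for Fcgr3 and chr5:90772185-90772484 on the plus strand for Pf4. F13a1 and Fcgr3 have 2 windows each. The one given was chosen by presence of the longer form, then by more GAGGAA matches, then by lower coordinates.
F13a1: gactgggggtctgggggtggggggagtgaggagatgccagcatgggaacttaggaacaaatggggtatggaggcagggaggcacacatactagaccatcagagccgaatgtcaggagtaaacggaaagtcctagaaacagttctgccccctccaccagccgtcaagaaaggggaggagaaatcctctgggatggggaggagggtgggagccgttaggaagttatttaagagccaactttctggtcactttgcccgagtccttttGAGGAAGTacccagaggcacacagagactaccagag
Ctss: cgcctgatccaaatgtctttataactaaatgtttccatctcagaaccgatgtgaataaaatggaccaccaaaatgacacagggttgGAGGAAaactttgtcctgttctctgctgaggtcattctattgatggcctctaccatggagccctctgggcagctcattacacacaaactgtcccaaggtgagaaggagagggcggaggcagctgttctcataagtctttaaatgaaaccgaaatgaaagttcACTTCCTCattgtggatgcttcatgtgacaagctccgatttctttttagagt
Fcgr3: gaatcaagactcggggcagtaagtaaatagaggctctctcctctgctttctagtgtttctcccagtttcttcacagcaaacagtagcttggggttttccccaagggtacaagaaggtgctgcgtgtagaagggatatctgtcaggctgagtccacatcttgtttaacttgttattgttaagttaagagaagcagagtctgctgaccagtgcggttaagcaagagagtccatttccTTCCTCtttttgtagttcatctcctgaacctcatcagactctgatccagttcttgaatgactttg
Pf4: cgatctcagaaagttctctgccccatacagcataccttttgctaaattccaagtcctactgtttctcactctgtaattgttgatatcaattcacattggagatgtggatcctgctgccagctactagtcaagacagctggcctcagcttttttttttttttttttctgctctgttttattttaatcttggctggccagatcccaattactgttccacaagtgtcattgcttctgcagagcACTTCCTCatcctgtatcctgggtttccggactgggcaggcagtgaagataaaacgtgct
GAGGAA was present in a window of 17 of the 26 members (65.4%), against 31.3% of the 27025 genes with windows. GAGGAAGT was present for 6 of the 26 (C1qc, Cd53, Ctss, F13a1, Pf4 and S100a8, 23.1%), against 3.69% of all genes. Every GAGGAAGT also counts as a GAGGAA. Both forms were chosen after the windows were seen, and a match describes the letters only. Among the genes with the longer form, S100a8 had a difference of -0.16 and C1qc 0.13.

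Pan-leukocyte genes, those of leukocytes in general with macrophages included, had a median difference close to that of the tissue macrophage genes, 0.25 against 0.21. Their values therefore do not stand apart from those of macrophages. Of 5 such members 4 were tested, all with positive differences, and 0 passed. Cd53, a tetraspanin of leukocytes, read 6.68, 6.51 and 6.79 in mutants and 6.52, 5.97 and 6.49 in WT hearts, a difference of 0.33 (SE 0.18, limma adjusted p = 0.424), with the arrays meeting at mutant replicate 2. Coro1a, an actin-binding protein of haematopoietic cells, read 6.80, 6.68 and 6.37 in mutants and 6.66, 6.14 and 6.29 in WT hearts, a difference of 0.25 (SE 0.18, limma adjusted p = 0.545). Other Coro1a probe sets, under the filter, gave 0.24 with overlap and -1.76 with every mutant lower. The latter had a mean of only 1.77 log2 units over all arrays. Lcp1, the plastin that bundles actin in leukocytes, had 0.25, while its second probe set gave -0.16.

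Laptm5, a lysosomal membrane protein of haematopoietic cells, had a difference of 0.00, and 0.41 with its second probe set, a gap larger than the genotype difference of most members. Ptprc, the CD45 antigen that defines leukocytes, was under the filter at 6.33, 5.98 and 6.23 in mutants and 6.24, 5.59 and 6.26 in WT hearts, with overlap. The mean log2 level of the 4 tissue macrophage genes minus that of the 4 tested pan-leukocyte genes was 1.71, 1.46 and 1.83 in mutants and 1.36, 1.74 and 1.75 in WT hearts. The genotype means of this contrast, 1.67 (SD 0.19) and 1.62 (SD 0.22), differed by 0.05, less than the spread within either, and the arrays overlapped.

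Both granulocyte genes had negative differences, as did Folr2, Adgre1 and Fcer1g. S100a8 read 7.33, 7.54 and 7.76 in mutants and 7.45, 7.95 and 7.72 in WT hearts, a difference of -0.16 (SE 0.16, limma adjusted p = 0.671). S100a9, its partner in calprotectin, read 6.69, 6.93 and 7.55 in mutants and 6.93, 7.42 and 7.04 in WT hearts, a difference of -0.08 (SE 0.22, limma adjusted p = 0.907). Both overlapped widely. On WT replicate 2 these 2 genes were well above their mean, while most other members were at their lowest there.

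Among markers of neutrophil granules, 1 of 6 on the array was above the filter, Ngp, with -0.38 (limma adjusted p = 0.342). The list, with Elane at 0 on 2 arrays of each genotype, summed to 415.8 to 536.1 in mutants and 482.7 to 692.8 in WT hearts. Under the filter, Mpo had -0.28 with every mutant lower. Camp had -0.38, Prtn3 -0.73, Ltf -0.10 and Elane 0, all with overlap. Lymphocyte markers, 2 of 6 above the filter, summed to 240.1 to 301.1 in mutants and 277.8 to 363.1 in WT hearts. Cd3e was at 0 on mutant replicate 1 and WT replicate 1, and Cd3g on mutant replicate 3. The differences above the filter were -0.34 for Cd8a and -0.32 for Cd79a. Under it, Ms4a1 had 0.16, Cd3e 0.04, Cd79b -0.04 and Cd3g -0.65, all with overlap. A second Ms4a1 probe set, also under it, had 0.45 with every mutant higher. Other Cd8a probe sets, all under it, ran from -0.80 to 0.17 with overlap. Neither list had a called gene. Mast cell markers, 2 of 6 above the filter, summed to 554.6 to 566.8 in mutants and 478.4 to 542.3 in WT hearts. Cpa3 had a difference of 0.23 and Kit one of 0.21. Under the filter, Cma1 had 0.18, Tpsb2 -0.12, Ms4a2 -0.15 and Mcpt4 -0.25, all with overlap. The mean log2 level of all 6 was 5.56 in mutants and 5.54 in WT hearts. Thymus markers, 1 of 6 above the filter, summed to 1085 to 1166 and 1048 to 1101. Of these sums Cd1d1, the 1 above it, gave 949.4 to 1078 and 950.9 to 1004. Its difference was 0.07, or -0.23 with its second probe set. Rag1 was at 0 on mutant replicate 1 and WT replicates 1 and 2.

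Across arrays, much of the variation lay in WT replicate 2. It was the lowest of the 6 arrays for 14 of the 24 members (58.3%), against 27.9% of all genes, and the members' median deviation from their own means was -0.30 log2 units there, against -0.01 over all genes. On WT replicates 1 and 3 the median deviation was -0.03 and -0.05, and on mutant replicates 1, 2 and 3 it was 0.06, 0.06 and 0.18. The SD was larger in WT hearts than in mutants for 19 of 24 members. Without WT replicate 2 the median difference of the members was 0.07 and that of the pan-leukocyte genes 0.11, against 0.15 and 0.25 with all arrays. Without WT replicate 1 the pan-leukocyte median was 0.42. The 4 erythroid markers on the array, 2 of them above the filter, summed to 1223 to 1734 in mutants and 1185 to 1254 in WT hearts. Their mean log2 level was 5.68 in mutants and 5.69 in WT hearts, and Hba-a1 was at 0 on mutant replicate 2 and WT replicate 1. On WT replicate 2, Slc4a1, the anion exchanger of red cells, had its lowest WT value (7.15, with 7.97 and 8.28 on the others) and Alas2, the erythroid enzyme of heme synthesis, its highest, above 9.84 and 9.85 on the others. Their part in the members' values was not tested.

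**Figure D3:**
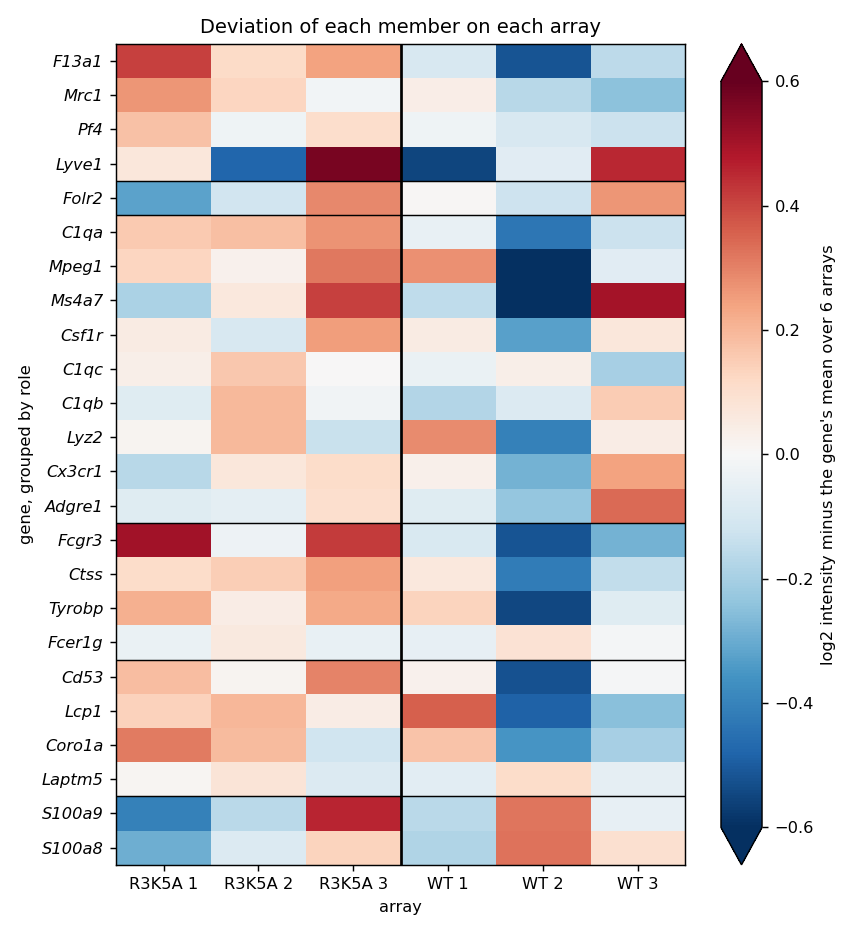
Log2 intensity of each of the 24 members on each array minus the gene's mean over the 6 arrays, FOG-2R3K5A left of the line and WT right of it, rows grouped by role (tissue macrophage at the top, granulocyte at the bottom), red above and blue below the mean. WT replicate 2 is the lowest array for 14 genes, while S100a8 and S100a9 are above their mean there.

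On mutant replicate 2 Scgb3a2 was within the WT range. With that mutant array alone against all WT arrays, a comparison chosen after the data were seen, the median difference of the members was 0.18. The part of the lung signal in the other mutant values was not tested. The precision set a bound on what could be seen: the 95% intervals had a median half-width of 0.36 log2 units, and the highest upper bound of any member, for Fcgr3, was 0.99, so a change of 2-fold or more lay outside the unadjusted interval of each of the 24 members.

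Other genes of macrophage growth, recruitment and uptake gave 1 call among 23 tested of 44 listed, beside 1.76% of all tested genes. Slc40a1, or ferroportin, the iron exporter through which macrophages return iron from engulfed red cells, rose to 9.37, 9.28 and 9.48 in mutants, against 8.89, 8.29 and 8.76 in WT hearts. Each mutant was higher than each WT array, and the difference was 0.73 (SE 0.15, 1.66-fold, limma adjusted p = 0.0467). A second Slc40a1 probe set gave 7.88, 7.76 and 7.93 in mutants and 7.51, 7.11 and 7.29 in WT hearts, again without overlap. The call ended without mutant replicate 1, 2 or 3 or WT replicate 3 (adjusted p = 0.107 to 0.189), without the filter (0.119) and without the intensity trend (0.0923), as well as with mutant replicate 2 alone, while the difference stayed between 0.55 and 0.85 in every alternative. Hepatocytes, duodenum and cardiomyocytes are also known to express ferroportin, so its value is not that of macrophages alone. Hmox1, the haem oxygenase that frees that iron, read 7.36, 7.46 and 7.40 in mutants and 7.31, 6.97 and 7.12 in WT hearts, a difference of 0.27 (limma adjusted p = 0.351).

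Chemokines pointed both ways. Ccl2, which draws monocytes through Ccr2, read 7.79, 7.95 and 7.84 in mutants and 8.0, 8.43 and 8.54 in WT hearts, with every mutant lower and a difference of -0.46 (SE 0.14, limma adjusted p = 0.171). Without WT replicate 1 it was -0.62 and passed (limma adjusted p = 0.0231). Ccl4, a chemokine that activated macrophages release, read 6.71, 6.87 and 6.80 in mutants and 6.21, 6.27 and 6.38 in WT hearts, where its mean was under the filter level, a difference of 0.51 (SE 0.13, limma adjusted p = 0.101, or 0.0437 without the intensity trend).

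Cxcl12, the ligand of Cxcr4 and a signal for coronary vessels as well as leukocytes, read 11.25, 11.11 and 11.14 in mutants and 11.06, 10.74 and 10.85 in WT hearts, a difference of 0.29 (SE 0.09, limma adjusted p = 0.162). Its second probe set had the opposite sign, at 8.78, 8.41 and 8.81 in mutants and 8.89, 8.85 and 9.13 in WT hearts, and neither probe set overlapped between genotypes. The main probe set passed without WT replicate 1 (0.37, limma adjusted p = 0.0342), and the mean over both probe sets gave a difference close to 0.

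Growth factors and transcription factors of macrophages gave 0 calls by limma among 1 and 7 tested genes, and 1, Klf4, had an unadjusted p under 0.05. Csf1 read 7.65, 7.77 and 7.47 in mutants and 7.40, 7.50 and 7.52 in WT hearts, a difference of 0.16 (SE 0.12, limma adjusted p = 0.551). A second Csf1 probe set above the filter gave 0.02, and those under it -0.78 and 0.21, all with overlap. Il34 was under the filter, at 5.73 to 6.00 in mutants and 5.67 to 5.95 in WT hearts, and so was Spi1, at 5.80 to 5.93 and 5.79 to 6.30, each with overlapping genotypes. Klf4, singled out after its values were seen, read 9.49, 9.24 and 9.17 in mutants and 8.67, 9.02 and 9.08 in WT hearts, a difference of 0.38 (SE 0.13, limma adjusted p = 0.218), and its other probe set gave 0.46. Of 10 tested genes for uptake and scavenging, 6 had positive differences and 1, Slc40a1, was called. At an unadjusted p under 0.05, 4 of the 23 genes were higher and 1 was lower, beside 8.4% and 6.33% of all tested genes.

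**Figure D4:**
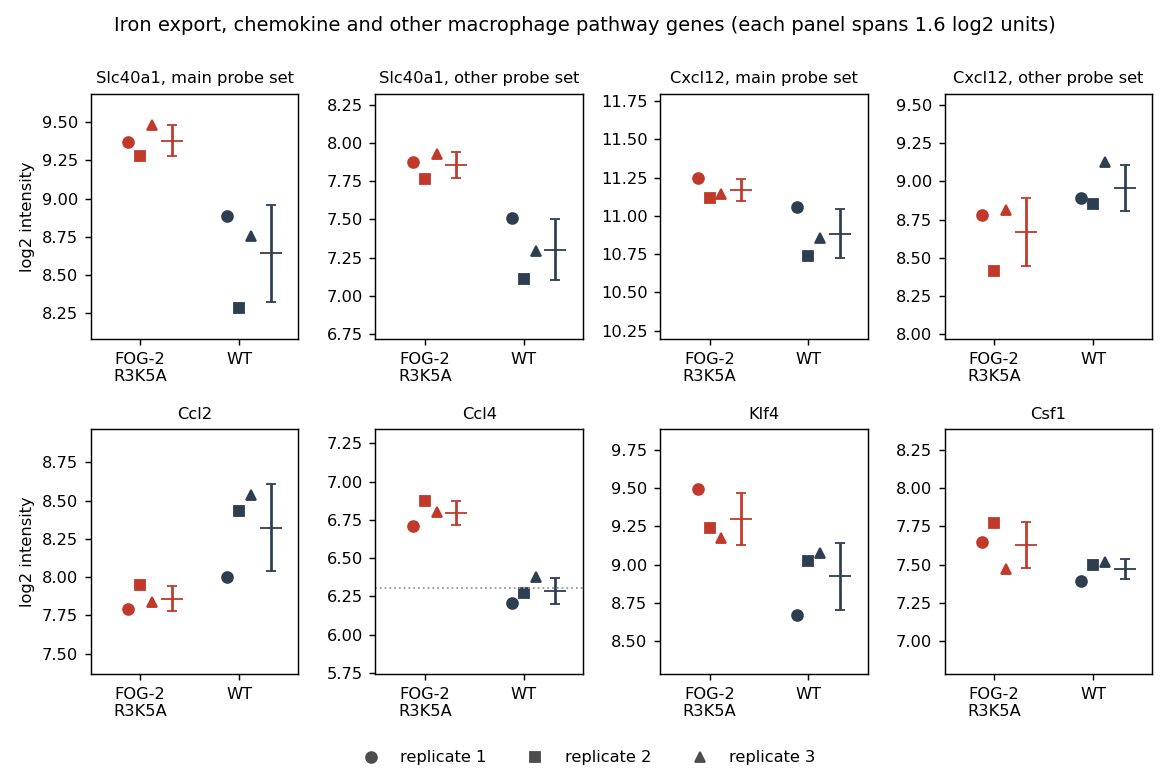
Log2 intensity of 6 pathway genes on each array, FOG-2R3K5A left and WT right in each panel, with marker shapes for the replicate number, the bar the mean and SD of 3 arrays, and a dotted line the filter level where it falls within the panel. Both Slc40a1 probe sets are higher in every mutant, the Cxcl12 probe sets go opposite ways, and Ccl2 is lower in every mutant.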

How the data were processed

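Total RNA of whole hearts was labelled with biotin and hybridised to 1-colour Affymetrix arrays, per the labels' protocols. The deposited table holds linear intensity values of 45101 probe sets on 6 arrays. They were already scaled between arrays, as the values show (array medians within 0.12 log2 units, lowest value 1), and the software used is not given in the sources used here. No detection calls were used, and the number of arrays limits the precision.

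Values below 1 were set to 1 and log2 was taken. Of the probe sets, 64 are controls, 34945 carry 1 gene symbol in the platform annotation, 932 several and 9160 none. The last 2 kinds were not used. A gene was represented by its brightest probe set over the 6 arrays. The filter was the median of the non-control means, 6.30 on the log2 scale or 78.9 as intensity, and 7080 of 18193 genes at or under it were dropped. Mutant and WT arrays were compared in R 4.3.3 by limma 3.58.1 (lmFit, then eBayes with trend, two-sided), with Benjamini-Hochberg adjustment over 11113 genes and differences as FOG-2R3K5A minus WT. The fit was tested on simulated data. Lists were described by counts and medians, without a test. The members and lists were chosen with earlier results of these data known. Values per array are given for the tissue macrophage and granulocyte members, Csf1r, Ptprc and the 10 members with the smallest p, and for the pathway genes called or with the 4 smallest p, with Csf1, Il34, Spi1 and Ccl2. Klf4, Hmox1, Cybb, Folr2 and Cd163, and marker genes given with values, were added on inspection of the data. The alternatives were quantile and median scaling, log2 of the value plus 16, no filter or the 60th percentile, the mean over probe sets, no trend, array weights, a replicate block, and leaving out each array. Figures were drawn with matplotlib 3.10.9.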

Additional observations from a re-analysis of the deposited data

How the results depend on the processing

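In every alternative run, 0 members were called in either direction, and the smallest adjusted p of any member by limma was 0.0516, for F13a1 with the replicate block. F13a1 kept a difference of 0.37 to 0.59. The number of genes changed, 196 with all arrays, was 429 under array quality weights, 119 with the trend switched off and 81 with no filter, and it ran from 37 without mutant replicate 1 to 451 without WT replicate 1. It was 5 with mutant replicate 2 alone against all WT arrays, where 0 pathway genes were called and the lone sample is assumed to vary like the WT arrays. The pathway count, 1 with all arrays, was 0 without the filter and 0 to 3 with 1 array left out. With 1 array left out, the median difference of the members ran from 0.0712 to 0.219, that of the tissue macrophage genes from 0.15 to 0.31 and that of the pan-leukocyte genes from 0.11 to 0.42. The labels do not say whether the replicate numbers pair the samples. Deviations of same-numbered arrays correlated at -0.06, 0.13 and 0.41, and mutant replicate 1 correlated best with WT replicate 2 (0.25). With 3 arrays per genotype these correlations are few and depend on each other, so they cannot settle whether the samples are paired. The fit with the replicate block called 234 genes. Low signal limits the 8 members under the filter, which were tested only without it, where 0 of 32 members were called.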
